A study of Mus musculus with 9 samples.

Results

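The clock genes followed here are 10 in number: the activators Clock and Npas2, the repressors Per1, Per2, Per3, Cry1 and Cry2, the output factor Dbp and the nuclear receptors Nr1d1 and Nr1d2. They were found by symbol in the table of quadriceps against heart, where they hold 15 of 35745 transcript rows and 10 of 24537 gene names. The series has 9 RNA sequencing libraries of C57Bl6 mice (by the study's methods C57Bl/6JCrl males), and the 6 used here come from sham-operated animals, 3 libraries from the heart and 3 from the quadriceps. The mice had sham surgery, the control operation for transverse aortic constriction, at an age of 8 weeks, and tissue was taken 12 weeks later. Strain, age and operation are therefore shared by both groups, and the tissue differs. Whether heart and quadriceps libraries were prepared and sequenced together is not given in the sources used here. Such a batch could not be told apart from the tissue. The comparison asks how the levels of clock genes in a limb muscle differ from those in the heart. The animals lived in a light and dark cycle, but the time of day at which tissue was taken is not given in the sources used here, nor whether a heart and a quadriceps of the same number came from the same mouse.

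The molecular clock is a feedback loop of transcription that runs in almost every cell, heart and skeletal muscle included. CLOCK or its paralog NPAS2 pairs with BMAL1, the product of Arntl, and activates genes through E-box motifs, among them the Per and Cry genes, whose proteins then repress the pair. A side loop of REV-ERB repressors (Nr1d1 and Nr1d2) and ROR activators sets the level of Arntl, and Dbp is an output factor that binds D-box motifs. The transcripts of most of these genes rise and fall over the day.

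The libraries matched their labelled tissues. Summed over 6 cardiomyocyte genes, the heart libraries held 33633 to 36321 CPM (counts-per-million) and the quadriceps libraries 98.4 to 261, with Ryr2 at 0 in quadriceps 2. The sum of 6 genes of fast skeletal fibers was 1.79 to 2.88 CPM in heart and 56796 to 81181 CPM in quadriceps. Total counts, summed over all transcript rows, ran from 23383452 to 38382751 per library. Here CPM is relative to the library size scaled by TMM, edgeR's trimmed mean normalization, whose factors were 1.29 to 1.31 in heart and 0.725 to 0.833 in quadriceps. Scaling by library totals instead moves the median gene from -0.05 to -0.80 on the log2 scale, a shift of -0.75 that applies alike to all fold changes below. Other cell types also differed: endothelial genes were lower in quadriceps for 5 of 5 (summed CPM 434 to 470 in heart and 132 to 150 in quadriceps) and adipocyte genes higher for 3 of 3 (0.279 to 0.903 and 6.67 to 54.0, Lep at 0 in heart 3). Fibroblast genes were lower for 3 of 4 (427 to 477 and 311 to 423), leukocyte genes lower for 3 of 4 (24.8 to 26.7 and 8.95 to 18.5), and of 3 smooth muscle genes 1 was higher and 1 lower (87.7 to 110.5 and 64.0 to 84.9). These calls are with TMM by the test given below, where 32.1% of all genes were higher and 33.9% lower. With library totals, 4 of 4 fibroblast and 4 of 4 leukocyte genes were lower. Of the smooth muscle genes 2 were then lower and 0 higher, beside 62% and 13.6% of all genes. The part of these cells in the clock gene levels was not tested, and in bulk tissue fewer cells of a type and less RNA per cell cannot be told apart.

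With TMM, 7 of the 10 clock genes were higher in quadriceps than in heart, Npas2 alone was lower, and Clock and Cry2 did not pass the test (edgeR's quasi-likelihood test, Benjamini-Hochberg adjusted over 24280 transcript rows, threshold 0.05). Over all 14908 genes tested, 32.1% were higher and 33.9% lower by the same call. The median log2 fold change was 1.05 for the clock genes and -0.05 for all genes. The libraries of the 2 tissues did not overlap for the 7 genes that were higher, where 33.9% of all genes had every quadriceps library above every heart library, nor for Npas2, where 37.9% of all genes had every heart library above. The size of the difference was very uneven: Per1, Per2 and Dbp were 6.26, 4.74 and 4.39-fold higher in quadriceps, while Cry1 and Nr1d1 were higher by 1.65-fold with TMM and lay at a log2 fold change of -0.03 and -0.02 with library totals.

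**Figure D1:**
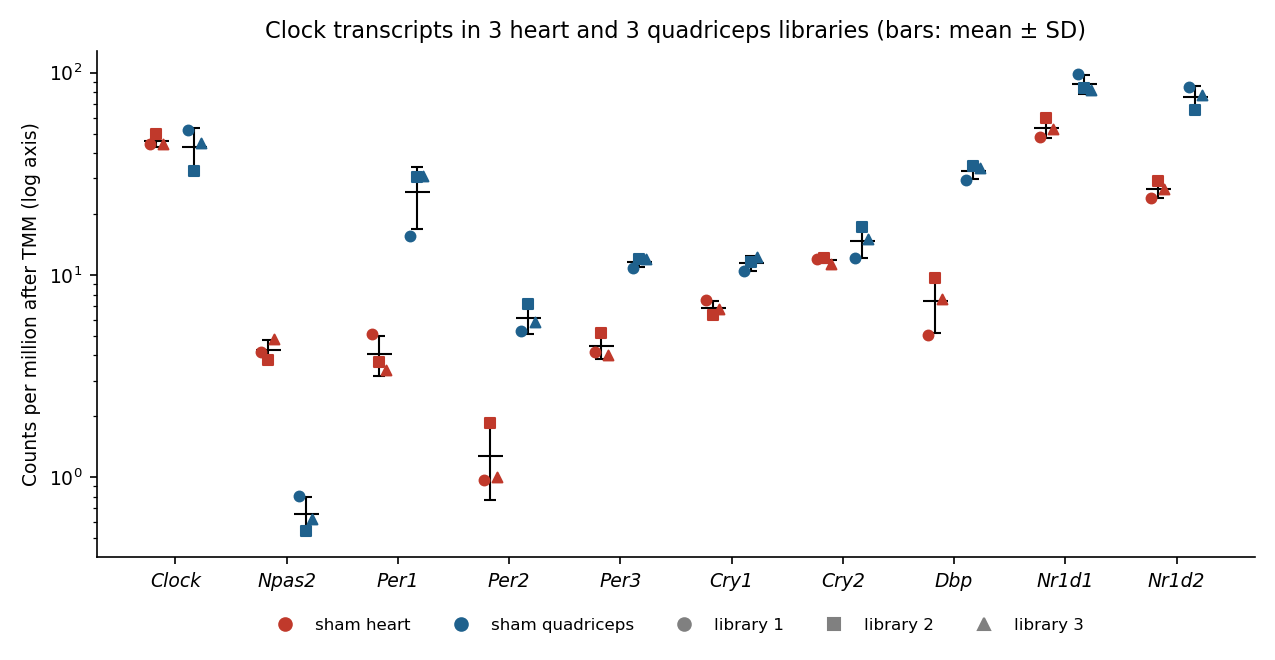
CPM after TMM (log axis) of the 10 clock genes in each of 3 sham heart and 3 sham quadriceps libraries; the marker shape gives the library number and the bars the mean and SD. Npas2 is the gene whose quadriceps libraries (0.543 to 0.809) all lie below heart (3.82 to 4.82), and Per1, Per2, Dbp and Nr1d2 show the widest gaps in the other direction.

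Clock (chr5:76209868-76304792, minus strand, GRCm38) encodes the basic helix-loop-helix activator that gives the loop its name. It measured 44.5, 49.7 and 44.2 CPM in the heart libraries and 52.1, 32.5 and 44.8 CPM in the quadriceps libraries. The quadriceps values lay on both sides of the heart values, and their means of 46.1 ± 3.11 and 43.1 ± 9.90 CPM (SD, n = 3 each) differed by less than the spread in quadriceps. The log2 fold change was -0.10 (95% confidence interval -0.46 to 0.26, adjusted p = 0.603 by edgeR). Relative to the median gene, the difference was -0.05 with TMM and -0.03 with library totals.

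Npas2 (chr1:39193731-39363236, plus strand) is the paralog that can take the place of CLOCK beside BMAL1. It was counted 199, 192 and 207 times in the heart libraries and 22, 13 and 11 times in the quadriceps libraries, or 4.18, 3.82 and 4.82 CPM against 0.809, 0.543 and 0.622 CPM. Every quadriceps library was several times below every heart library. Npas2 was 6.38-fold lower in quadriceps (95% confidence interval 4.61 to 8.83, log2 fold change -2.67 ± 0.21 SE, adjusted p = 3.60e-06 by edgeR). Its absolute log2 fold change under TMM was the largest of the clock genes, but close to that of Per1 (2.65 ± 0.27 SE). Measured from the median gene, Npas2 stood at -2.62 with TMM and -2.61 with library totals, and Per1 at 2.70 and 2.68. With library totals the log2 fold change of Npas2 was -3.41, which includes the shift of the median gene.

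The 3 Period genes encode the partners that carry the cryptochromes into the nucleus, and all of them were higher in quadriceps under each scaling. Per1 (chr11:69095217-69109960, plus strand) measured 5.10, 3.70 and 3.40 CPM in heart and 15.6, 30.3 and 30.9 CPM in quadriceps. The groups did not overlap, although quadriceps 1 stood well below the other quadriceps libraries. Per1 was 6.26-fold higher (95% confidence interval 4.11 to 9.54, log2 2.65 ± 0.27 SE, adjusted p = 2.17e-05 by edgeR).

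Per2 (chr1:91415982-91459324, minus strand), a repressor needed for a stable rhythm in mice, was the least abundant of the 3. It was counted 46, 93 and 43 times in the heart libraries and 143, 172 and 103 times in the quadriceps libraries, which are 0.966, 1.85 and 1.001 CPM and 5.26, 7.19 and 5.82 CPM. Heart 2 stood well above the other heart libraries and still below every quadriceps library. The difference was 4.74-fold (95% confidence interval 3.18 to 7.08, log2 2.25 ± 0.26 SE, adjusted p = 4.56e-05 by edgeR).

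Per3 (chr4:151003652-151044665, minus strand), which is dispensable for the core rhythm in mice, measured 4.18, 5.17 and 4.03 CPM in heart and 10.8, 12.0 and 12.0 CPM in quadriceps. The quadriceps libraries lay close together and well apart from heart. The difference was 2.60-fold (95% confidence interval 2.13 to 3.19, log2 1.38 ± 0.13 SE, adjusted p = 1.26e-05 by edgeR), the smallest value of the 3 Period genes. Per3 lies inside the span of Camta1 on the same strand but shares 0 exon bases with it.

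The cryptochromes are the main repressors of CLOCK and BMAL1, and their values differed less than those of the Period genes. Cry1 (chr10:85131700-85185064, minus strand) measured 7.50, 6.34 and 6.80 CPM in heart and 10.4, 11.5 and 12.3 CPM in quadriceps. The groups did not overlap and Cry1 was 1.65-fold higher (95% confidence interval 1.38 to 1.98, log2 0.73 ± 0.12 SE, adjusted p = 0.000433 by edgeR). With library totals the means were 8.92 and 8.77 CPM and the log2 fold change -0.03 (adjusted p = 0.830), so the direction rests on the scaling.

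Cry2 (chr2:92403646-92434043, minus strand), the second repressor of this family, measured 12.0, 12.1 and 11.3 CPM in heart and 12.1, 17.3 and 14.98 CPM in quadriceps. Quadriceps 1 fell within the heart values and the other quadriceps libraries above them. The log2 fold change was 0.32 (95% confidence interval 0.02 to 0.63), with an unadjusted p of 0.0396 and an adjusted p of 0.0581 by edgeR, which missed the threshold. It was 0.48 without quadriceps 1 (adjusted p = 0.00328), and it turned to -0.44 with library totals (adjusted p = 0.00616). Cry2 shares 295 exon bases with D930015M05Rik on the opposite strand, a gene with 14 to 42 counts per library, and whether the counting used strand is not stated.

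Dbp (chr7:45705088-45710203, plus strand) encodes a PAR bZIP factor that passes the rhythm on to genes with D-boxes. Its level was 5.06, 9.60 and 7.57 CPM in heart and 29.4, 34.7 and 33.6 CPM in quadriceps. Heart varied by up to 1.89-fold from library to library, yet its highest value was still well below the lowest quadriceps value. Dbp was 4.39-fold higher in quadriceps (95% confidence interval 3.18 to 6.06, log2 2.13 ± 0.21 SE, adjusted p = 1.49e-05 by edgeR), and its log2 fold change was 1.38 with library totals. It shares 539 exon bases with Sphk2 on the opposite strand, whose counts were 387, 531 and 414 in heart and 509, 556 and 400 in quadriceps, so some reads may be exchanged if strand was not used.

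Nr1d1 and Nr1d2 encode REV-ERBα and REV-ERBβ, heme-binding repressors of Arntl. Nr1d1 (chr11:98767932-98775333, minus strand) was at 48.0, 59.5 and 52.7 CPM in heart and 98.8, 83.6 and 81.9 CPM in quadriceps. No library of the 2 tissues overlapped, and the means of 53.4 ± 5.76 and 88.1 ± 9.27 CPM (SD, n = 3 each) differed by 1.65-fold (95% confidence interval 1.37 to 1.99, adjusted p = 0.000527 by edgeR). With library totals the means were 69.4 and 68.3 CPM and the log2 fold change -0.02 (adjusted p = 0.899). Nr1d1 shares 263 exon bases with Thra, a thyroid hormone receptor gene on the opposite strand, with counts of 2382, 2548 and 2176 in heart and 790, 721 and 546 in quadriceps. Some reads may thus be exchanged if strand was not used.

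Nr1d2 (chr14:18204054-18239127, minus strand) overlaps no other annotated gene. It measured 23.9, 29.0 and 26.6 CPM in heart and 84.6, 65.6 and 77.9 CPM in quadriceps. The lowest quadriceps library was above the highest heart library by a wide margin. The difference was 2.87-fold (95% confidence interval 2.36 to 3.49, log2 1.52 ± 0.13 SE, adjusted p = 5.49e-06 by edgeR) and stayed positive with library totals (log2 0.78, adjusted p = 0.00197).

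The scaling decides the sign of Cry1, Cry2 and Nr1d1. With library totals, 5 clock genes were higher (Per1, Per2, Per3, Dbp and Nr1d2) and 3 lower (Clock, Npas2 and Cry2), where 13.6% of all genes were higher and 62% lower. Measured from the median gene, Cry1 stood at 0.78 with TMM and 0.77 with totals on the log2 scale and Nr1d1 at 0.78 with either. Here and above, measuring from the median gene removes the common shift by construction. The likeness of these values between the scalings therefore does not settle the sign. The 10 most counted transcripts took 11.5% to 12.0% of the counts in heart and 15.6% to 18.5% in quadriceps. Genes with several transcript rows gave nearly one value, from -0.10 to -0.09 for Clock and from 1.37 to 1.38 for Per3 on the log2 scale with TMM. The rows of one gene held nearly the same counts (2119, 2104 and 2102 for Clock in heart 1). Their likeness is therefore no independent check.

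**Figure D2:**
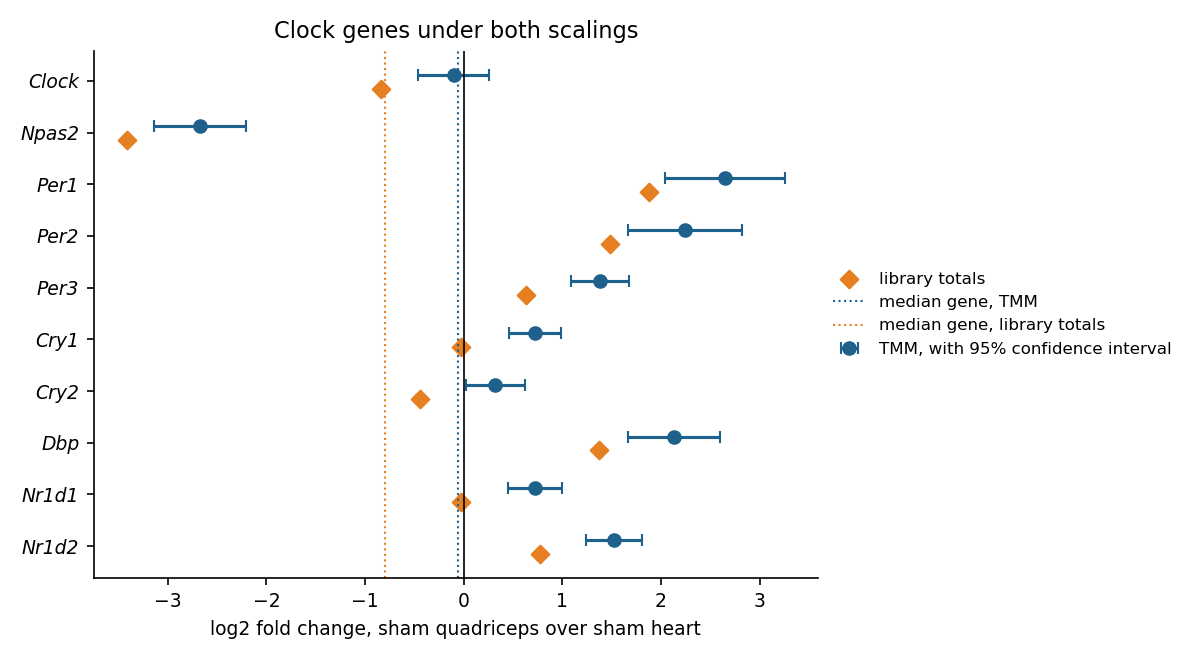
Log2 fold change of sham quadriceps over sham heart for each clock gene, with TMM (circles, bars for the 95% confidence interval) and with library totals (diamonds); dotted lines mark the median gene under each scaling. Npas2 lies left of both median lines, Clock on them, and Per1, Per2, Dbp and Nr1d2 far to the right, while Cry1 and Nr1d1 sit close to 0 with library totals.

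The promoter windows of RefSeq (build GRCm38.p6, 250 bases before and 50 from each start, 300 bases in all) were read for the E-box CACGTG, the D-boxes TTACGTAA and TTATGTAA, the ROR and REV-ERB binding sites TAGGTCA and TGGGTCA and the cAMP element TGACGTCA, on both strands. A window was found for 9 of the 10 clock genes, 12 windows in all. Per2 had no window, so its promoter was not read. Shown are the windows of Per1, Cry1 and Per3, the members with a match, and of Npas2, the gene that moved the other way; motif letters are in capitals.
Per1 (chr11:69098699-69098998, plus strand): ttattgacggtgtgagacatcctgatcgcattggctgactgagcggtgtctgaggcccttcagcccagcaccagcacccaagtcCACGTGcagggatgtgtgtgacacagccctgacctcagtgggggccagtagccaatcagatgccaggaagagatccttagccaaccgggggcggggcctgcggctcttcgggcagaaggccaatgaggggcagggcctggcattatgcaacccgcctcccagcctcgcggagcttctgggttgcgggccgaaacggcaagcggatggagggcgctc
Cry1 (chr10:85185005-85185304, minus strand): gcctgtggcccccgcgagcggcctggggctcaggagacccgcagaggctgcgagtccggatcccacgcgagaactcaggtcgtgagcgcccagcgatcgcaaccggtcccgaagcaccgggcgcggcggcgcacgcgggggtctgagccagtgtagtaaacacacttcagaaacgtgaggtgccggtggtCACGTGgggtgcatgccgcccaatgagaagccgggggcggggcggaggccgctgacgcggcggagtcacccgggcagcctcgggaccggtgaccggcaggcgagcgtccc
Per3 (chr4:151044616-151044915, minus strand): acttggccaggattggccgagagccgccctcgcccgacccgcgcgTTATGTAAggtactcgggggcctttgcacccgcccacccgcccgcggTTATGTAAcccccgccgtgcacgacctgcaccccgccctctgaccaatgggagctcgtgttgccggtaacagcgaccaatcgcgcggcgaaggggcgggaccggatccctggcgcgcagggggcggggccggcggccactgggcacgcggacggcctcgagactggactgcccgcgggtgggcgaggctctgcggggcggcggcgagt
Npas2 (chr1:39194022-39194321, plus strand): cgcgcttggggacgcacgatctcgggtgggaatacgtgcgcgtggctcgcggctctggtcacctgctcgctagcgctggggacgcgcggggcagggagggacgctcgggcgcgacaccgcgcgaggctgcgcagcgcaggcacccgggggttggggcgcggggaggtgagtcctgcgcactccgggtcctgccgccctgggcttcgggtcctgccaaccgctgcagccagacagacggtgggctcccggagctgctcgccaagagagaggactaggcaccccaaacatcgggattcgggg

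The E-box lay 166 bases before the start of Per1 and 60 bases before that of Cry1, in 2 of 12 member windows, and 7.15% of all 32851 windows held it. With TMM, Per1 and Cry1 were 6.26-fold and 1.65-fold higher in quadriceps, and Cry1 was at a log2 fold change of -0.03 with library totals. Dbp and Nr1d2, whose windows held no match, were 4.39-fold and 2.87-fold higher with TMM. A further window of Per1 held no match. Per3 held TTATGTAA at 205 and at 158 bases before its start, a motif found in 0.938% of all windows. The other letters searched were in no member window: TTACGTAA occurs in 0.119% of all windows, TAGGTCA in 2.61%, TGGGTCA in 3.98% and TGACGTCA in 1.79%. No searched motif contains another, and in the member windows no match overlapped another. A match of letters is a description of the window and was not tied to any level.

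Ratios of related genes within a library do not depend on how libraries are scaled. Clock exceeded Npas2 per kilobase by 4.64-fold in heart and by 27.9-fold in quadriceps, a difference of -2.59 in the log2 ratio of Npas2 to Clock. Nr1d1 exceeded Nr1d2 by 3.37, 3.44 and 3.33-fold in the heart libraries, a narrow range, and by 1.96, 2.14 and 1.77-fold in the quadriceps libraries. The REV-ERB genes were thus closer in level in quadriceps in every library, with a difference of -0.79 in the log2 ratio. The part in this ratio of reads from Thra, which shares exon bases with Nr1d1, was not tested.

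Per3 exceeded Per2 by 4.17, 2.70 and 3.88-fold in heart and by 1.99, 1.62 and 1.995-fold in quadriceps. Cry1 stood at 0.832, 0.695 and 0.797 of Cry2 in heart and at 1.14, 0.886 and 1.09 of it in quadriceps, so Cry2 was the higher cryptochrome per kilobase in all heart libraries and in quadriceps 2. For these ratios and for those of Npas2 to Clock and Nr1d1 to Nr1d2 the tissues did not overlap, which gave p = 0.1 in an exact two-sided permutation test, the smallest value that 3 against 3 can give (0.125 after Benjamini-Hochberg adjustment over the 5 ratios). The ratio of Per1 to Per2 did overlap, at 6.65, 2.52 and 4.27 in heart and 3.73, 5.31 and 6.67 in quadriceps (exact permutation p = 0.6). Its log2 difference of 0.30 became -0.07 without heart 2.

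**Figure D3:**
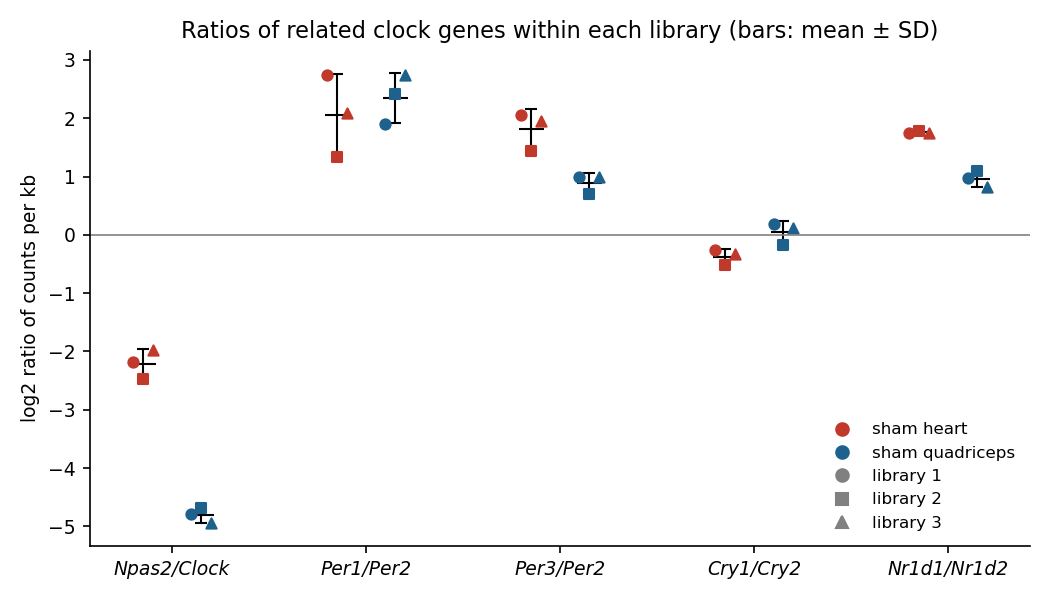
Log2 ratio of counts per kb of 2 related clock genes within each library, for 3 sham heart and 3 sham quadriceps libraries, with mean and SD. Npas2/Clock, Per3/Per2 and Nr1d1/Nr1d2 are lower in all quadriceps libraries and Cry1/Cry2 is higher, whereas Per1/Per2 overlaps between the tissues.

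The order of the levels per kilobase (RPKM on TMM-scaled library size) shifted between the tissues. In heart it ran from Nr1d1 (19.4 ± 2.09, SD, n = 3) through Nr1d2 (5.72), Clock (4.75), Dbp (4.43), Cry2 (2.96), Cry1 (2.29), Npas2 (1.03), Per1 (0.880) and Per3 (0.740) to Per2 (0.219). Neighbours whose library ranges overlapped were Clock with Dbp, Dbp with Cry2, Npas2 with Per1 and Per1 with Per3. In quadriceps the order was Nr1d1 (32.0 ± 3.37), Dbp (19.5), Nr1d2 (16.4), Per1 (5.54), Clock (4.43), Cry1 (3.80), Cry2 (3.71), Per3 (1.93), Per2 (1.05) and Npas2 (0.158). There, Dbp with Nr1d2 and the run from Per1 to Cry2 overlapped from neighbour to neighbour. Nr1d1 was thus the most abundant clock transcript in both tissues, Per2 the least abundant in heart and Npas2 the least abundant in quadriceps.

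Libraries of one tissue did not vary alike across the clock genes. The SD of log2 CPM among the heart libraries was 0.50 for Per2, 0.46 for Dbp and 0.30 for Per1, beside a median of 0.11 over all tested rows, and 8 of the 10 clock genes lay above that median. Among the quadriceps libraries it was 0.56 for Per1 and 0.35 for Clock beside a median of 0.23, and 4 of 10 lay above. The median SD over the clock genes was 0.16 in heart and 0.21 in quadriceps. They thus lay mostly above the typical transcript in heart but not in quadriceps, a description without a test.

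Heart 2 held the highest level of 7 of the 10 genes, among them Per2 (0.58 above the tissue's log2 mean), Dbp (0.42) and Per3 (0.22). In the same library Npas2 and Cry1 had the lowest level of the 3 heart libraries (-0.15 and -0.11). Of the other transcription factors of the clock, Arntl, Tef, Hlf and Nfil3 were also lowest there, with Arntl at 13.5 CPM beside 14.99 and 13.8. Arntl2, Rora, Bhlhe40, Bhlhe41 and Ciart were highest there, and Rorb was neither. Quadriceps 1 was lowest for 6 genes, all 3 Period genes, both cryptochromes and Dbp, with Per1 at -0.65. The same library was highest for the other 4 genes, Clock, Npas2, Nr1d1 and Nr1d2, at 0.30, 0.29, 0.17 and 0.16. Quadriceps 1 was also highest for all 3 adipocyte genes, with Adipoq at 43.5, 17.8 and 5.31 CPM in the quadriceps libraries, and for Pdk4, a kinase gene of fuel choice, at 777, 257 and 154 CPM, both singled out after their values were seen. This is a description of 6 libraries, and the part of fat cells or sampling time in it was not tested. The share of all genes highest or lowest in each library was not computed.

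**Figure D4:**
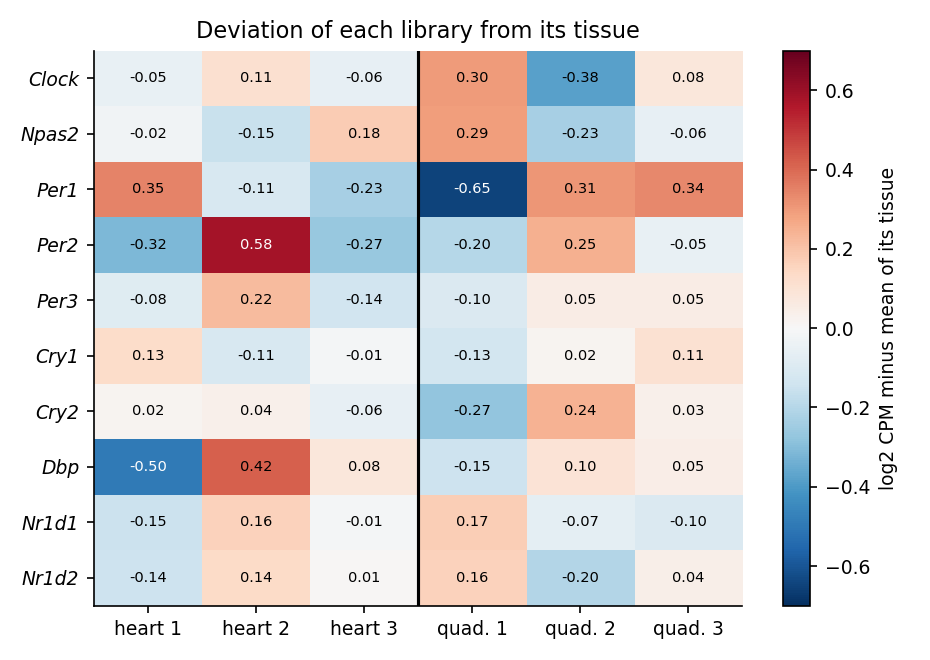
Log2 CPM of each clock gene in each library minus the mean of its tissue (color scale and printed value); red cells are above and blue cells below the tissue mean. Per2 and Dbp are high in heart 2 (0.58 and 0.42), and quadriceps 1 is low for the Per and Cry genes and Dbp but high for Clock, Npas2, Nr1d1 and Nr1d2.

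For the 3 clock genes that differed most, the tested genes of the most similar pattern over the 6 libraries were sought by the root mean square difference of centred log2 CPM. For Npas2 they were Fam217b (0.07), Ldhb (0.08), a lactate dehydrogenase subunit typical of heart, and Anks1 (0.09). Ldhb counts were 12144, 11944 and 11856 in heart and 1470, 969 and 791 in quadriceps, a log2 fold change of -2.46. For Per1 they included Tmem37 (0.16) and Rmi2 (0.17), the latter counted only 9, 5 and 5 times in heart and 25, 33 and 26 times in quadriceps. For Per2 they were Ubap1l (0.09), which had only 0 to 3 counts in heart and 5 to 9 in quadriceps, Dbp (0.19) and Exd1 (0.20). The log2 CPM included a prior count of 2, a small value added before the log, which shrinks differences of genes with few counts. Ubap1l thus ranked nearest although its log2 fold change was 3.70 and that of Per2 2.25. Dbp was thus among the 3 nearest of 14908 genes to Per2, and no other clock gene was named by the rule.

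Of 10 other transcription factors of the clock, 7 were higher in quadriceps with TMM, Rorb was lower, and Hlf and Nfil3 did not pass. Their median log2 fold change was 1.41, where all genes had -0.05, and 32.1% of all genes were higher and 33.9% lower. With library totals 5 of these factors were higher and 3 lower, beside 13.6% and 62% of all genes. Arntl, which encodes the BMAL1 partner of CLOCK and NPAS2, was counted 714, 679 and 591 times in the heart libraries and 567, 571 and 397 times in the quadriceps libraries. With TMM it measured 14.1 ± 0.797 CPM in heart and 22.4 ± 1.51 CPM in quadriceps (SD, n = 3 each, log2 0.67, adjusted p = 0.000305 by edgeR), and the log2 fold change was -0.09 with library totals. Its paralog Arntl2 was counted 1, 8 and 3 times against 47, 34 and 34 times (log2 4.25, adjusted p = 2.25e-05).

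Rora and Rorb, which encode activators that compete with REV-ERB, went opposite ways. Rora measured 17.4 ± 0.724 CPM in heart and 101 ± 18.8 CPM in quadriceps (log2 2.54, adjusted p = 4.57e-07 by edgeR). Rorb, counted 42, 36 and 16 times in the heart libraries and 10, 6 and 2 times in the quadriceps libraries, was lower (log2 -1.35, adjusted p = 0.0298). Thus the activator Rora and the repressors Nr1d1 and Nr1d2 were all at a higher level in quadriceps with TMM, and all but Nr1d1 also with library totals.

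Among the relatives of Dbp, Tef differed most: it measured 25.5 ± 1.41 CPM in heart and 141 ± 33.2 in quadriceps (log2 2.47, adjusted p = 1.42e-06 by edgeR). Hlf, the third PAR bZIP gene, stood at 0.06 on the log2 scale (95% confidence interval -0.26 to 0.37, adjusted p = 0.723), and Nfil3, the repressor at the same D-boxes, of 0.20 (-0.17 to 0.56, adjusted p = 0.303). The E-box repressors Bhlhe40 (log2 1.10, adjusted p = 7.24e-05) and Bhlhe41 (1.77, 2.40e-05) and the CLOCK repressor gene Ciart (1.73, 0.000390) were higher. With library totals Bhlhe40 was at 0.34 and no longer passed (adjusted p = 0.0527).

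Other genes set the stability of the clock proteins. Of 9 tested kinase, ligase and protease genes 6 were higher with TMM, none was lower and 3 did not pass. Their median log2 fold change was 0.60, and 32.1% of all genes were higher and 33.9% lower. With library totals only Usp2 was higher and 4 were lower, beside 13.6% and 62% of all genes. Usp2, a deubiquitinase that is itself a clock output, stood at 1.38 on the log2 scale (adjusted p = 2.18e-05 by edgeR), and Csnk2a1, a casein kinase 2 subunit, of 1.01 (0.26 with totals, adjusted p = 0.0576). Fbxl21 was below the filter, counted 6, 4 and 5 times in the heart libraries and once in each quadriceps library. Of 9 coregulators of the loop, 1 was higher, 2 lower and 6 did not pass with TMM (median -0.07, and 32.1% of all genes higher and 33.9% lower). With library totals 8 were lower and none higher, beside 62% and 13.6% of all genes (median -0.80 for the coregulators and for all genes). Hdac3, the deacetylase through which REV-ERB represses, was at 0.87 (adjusted p = 0.000437; 0.11 with totals), and the PER-associated RNA-binding factors Sfpq and Nono at -0.46 and -0.25 (adjusted p = 0.00222 and 0.0355).

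**Figure D5:**
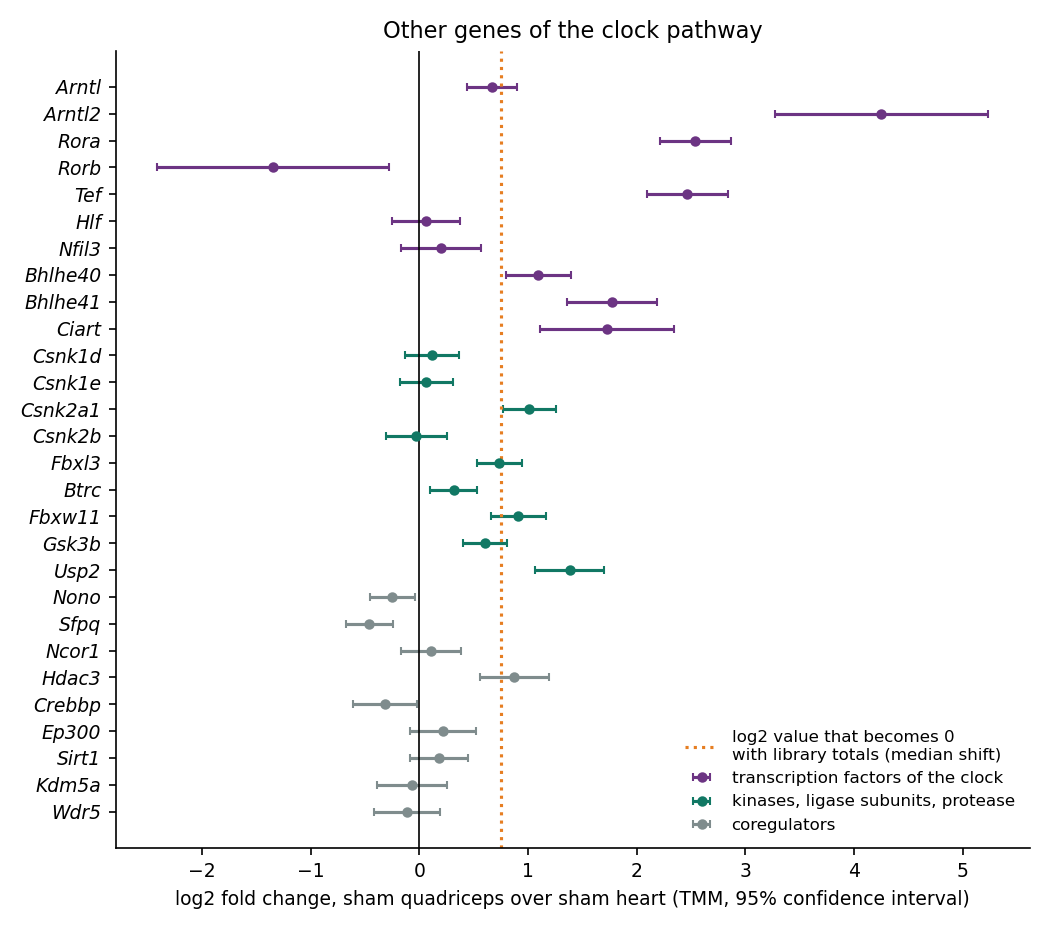
Log2 fold change of sham quadriceps over sham heart, with 95% confidence interval, for other genes of the clock pathway in 3 groups; the dotted line marks the log2 value that becomes 0 with library totals. Most transcription factors of the clock lie right of the line, with Rorb, Hlf, Nfil3 and Arntl left of it, whereas Hdac3 is the only coregulator right of it, with Sfpq, Nono and Crebbp left of 0 by their intervals.

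Of 9 genes known as clock outputs in striated muscle, 4 were higher, 4 lower and 1 did not pass with TMM, beside 32.1% and 33.9% of all genes. With library totals 2 were higher and 5 lower, beside 13.6% and 62% of all genes. Kcnip2, which encodes a subunit of the cardiac transient outward potassium channel, was counted 5446, 4907 and 4643 times in the heart libraries and 3, 5 and 1 times in the quadriceps libraries (log2 -9.63). Myod1, the myogenic factor of skeletal muscle, was counted 0, 2 and 0 times in the heart libraries and 180, 305 and 209 times in the quadriceps libraries, and Tcap, the titin cap gene, was higher by 2.37 on the log2 scale.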

How the data were processed

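RNA of the heart and quadriceps of sham-operated mice was sequenced as single-end reads. According to the submitters' processing notes and the study's methods, reads were trimmed with Trim Galore!, aligned with STAR to mm10 and counted on RefSeq transcripts with Rsubread. Versions and the strand setting are not given in the sources used here. The deposited values are raw counts per transcript, and the authors also deposited RPKM, which relates each count to the length of the transcript and to the summed counts of its column. The columns of the authors' own edgeR comparison (fold changes, F, p-values and adjusted p-values) and of further tests were not used. The table of TAC quadriceps holds no row of a clock gene and was not used.

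The test of the counts was that of edgeR 4.0.16 under R 4.3.3 (TMM, quasi-likelihood test, Benjamini-Hochberg over 24280 rows) after a filter of more than 5 counts in at least 2 libraries. Each gene is represented by its most counted row, and log2 SE was taken from the fold change and its F statistic. The sample labels do not say that the 3 libraries of a tissue are separate mice, so p-values measure the spread between these libraries. Replicate libraries differed by more than sampling noise (chi-square per degree of freedom 7.10 to 55.8), so none was counted as a duplicate. Depth limits mainly Per2 and Npas2, which had 11 to 22 counts in quadriceps for Npas2 and 43 to 93 in heart for Per2.

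Ratios within a library were compared with an exact two-sided permutation test. The alternatives were DESeq2 1.42.0, its size factors in edgeR, library totals, other filters, limma 3.58.1 on log2(RPKM + pseudocount), the pseudocount being 0.1, 0.5 or 1, the least counted row or 1 row per gene, the replicate number as a block and leaving out each library. The fit was also run on simulated counts in which few transcripts were changed, as many up as down. Such counts cannot check the scaling between the tissues. The members, gene lists and tests were chosen with earlier results of these data known. Named are all members, all other transcription factors of the clock, the 2 largest rises and falls that passed in each other list and the 3 nearest genes of the 3 members that differed most. Ranks were taken over the full lists. Some genes that this rule or the lists select are not reported here, and the list counts leave those out. Positions come from GENCODE vM21 (GRCm38) and promoter windows from RefSeq. Python 3.11.15, pandas 2.3.3, numpy 2.4.6, scipy 1.17.1 and matplotlib 3.10.9 were used.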

Additional observations from a re-analysis of the deposited data

How the results depend on the processing

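Per1, Per2, Per3, Dbp, Nr1d2 and Npas2 kept their direction and passed the test in every setting tried. The scaling changed most. The number of clock genes that were lower was 1 with TMM and 3 with library totals and in each limma fit on RPKM (pseudocount 0.1, 0.5 with and without the filter, and 1), in which Clock also passed as lower. In the same order, library totals first and then pseudocounts 0.1, 0.5, 0.5 without the filter and 1, the log2 fold change of Cry1 was -0.026, -0.023, -0.020, -0.020 and -0.018, of Cry2 -0.44, -0.43, -0.38, -0.38 and -0.34, and of Nr1d1 -0.022, -0.030, -0.029, -0.029 and -0.028. RPKM is scaled by library totals, as constructed. Over all rows, 7828 transcripts were higher and 8354 lower with TMM (16182 in all). With 1 transcript per gene these were 4744 and 5059 (9803 in all), since fewer rows are tested. With library totals they were 3241 and 15203, and in the limma fits 3177 and 15320, 3158 and 15149, 3210 and 15111, and 3110 and 14834. Leaving out single libraries gave 7 to 8 higher clock genes and 1 lower, the eighth being Cry2 without quadriceps 1 (0.48). Clock then ranged from -0.24 to 0.073, the highest value without quadriceps 2, Cry2 from 0.19 to 0.48, and the log2 difference of Per1/Per2 from -0.065 without heart 2 to 0.64. Where an arm kept 2 libraries the spread was pooled over the fit. The deviations of a heart and a quadriceps library that share a number were unrelated (r = 0.055, -0.053 and 0.035 over 24280 rows, and not every library correlated best with its own number). With the replicate block 7541 transcripts were higher and 8175 lower, and 7 clock genes were higher and 1 lower as without it.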

Other observations

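Per1 is also known as a gene that answers glucocorticoids and neural or growth stimuli rapidly, so other genes of those kinds were read beside it. All 4 glucocorticoid-responsive genes listed were higher in quadriceps with either scaling, where 32.1% of all genes were higher with TMM and 13.6% with library totals. Their median log2 fold change was 2.18 with TMM, beside -0.05 for all genes. Sgk1, a kinase gene induced by corticosteroids, measured 11.9, 11.0 and 12.9 CPM in heart and 103, 136 and 101 CPM in quadriceps (log2 3.25, adjusted p = 9.90e-08 by edgeR). Tsc22d3, which encodes GILZ, was at 19.1, 17.9 and 18.6 CPM in heart and at 67.0, 158 and 83.6 CPM in quadriceps (log2 2.47, adjusted p = 4.46e-05 by edgeR). The lowest quadriceps value of Tsc22d3 was in quadriceps 1, as for Per1, while its highest was in quadriceps 2.

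Of 8 immediate early genes 4 were higher in quadriceps with TMM, Ier2 was lower (log2 -0.86) and 3 did not pass, where 32.1% of all genes were higher and 33.9% lower. With library totals 3 were higher and 2 lower, beside 13.6% and 62% of all genes. Nr4a1, a nuclear receptor gene induced by contraction and stress, measured 3.46, 3.18 and 2.31 CPM in heart and 54.4, 101 and 198 CPM in quadriceps (log2 5.29, adjusted p = 7.76e-06 by edgeR). Fos was counted 17, 26 and 46 times in the heart libraries and 110, 193 and 435 times in the quadriceps libraries (log2 4.22, adjusted p = 0.000454 by edgeR). Quadriceps 1, where Per1 was lowest, held the lowest quadriceps level of 7 of these 8 genes (Egr1 was lowest in quadriceps 2) and of Tsc22d3 and Fkbp5, whereas Sgk1 and Zbtb16 were lowest in quadriceps 3. This was singled out after the values were seen, and the share of all genes lowest in quadriceps 1 was not computed. In all, 6 clock genes were lowest there. Per1 was at 30.3 and 30.9 CPM in quadriceps 2 and 3, where Nr4a1 was at 101 and 198 CPM. The part of handling, stress or time of day in these levels was not tested.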
